A study of Mus musculus with 15 samples.

Results

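Collagen chain genes encode the alpha chains that wind in threes into every collagen molecule. Expression of all of them was followed on Affymetrix arrays while mouse induced pluripotent stem cells (iPSC) were differentiated towards smooth muscle, and in smooth muscle cells taken from the aorta. A gene was included when its probe set, named by an Entrez Gene ID, mapped to a mouse symbol made of Col, a number, the letter a and a number. This rule found 44 of 25206 probe sets, 1 per gene. The rule itself uses no measured value, but the chains were chosen with earlier results of these data known.

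The 15 samples form 5 groups of 3. At day 0 the iPSC were undifferentiated. At day 5 they were sorted as Kdr+ mesodermal progenitors, named for Kdr (Flk-1), the receptor for VEGF that marks early mesoderm. At day 13 the cultures were divided into a GFP- and a GFP+ fraction, and the sample titles call both candidate smooth muscle cells. The last group holds GFP+ primary smooth muscle cells of the mouse aorta. The day 13 and aortic sorts used Acta2hrGFP, a reporter in which a fluorescent protein follows the smooth muscle actin gene Acta2. Strain, age, number of iPSC clones, culture medium and any pooling of aortas are not given in the sources used here. The replicates are numbered 3, 5 and 6 in each cultured group and 1, 2 and 3 in the aortic group. The design calls them biological triplicates without saying how separate the cultures were, so p-values rest on the spread between these triplicates. In such bulk samples, fewer cells of a type and less RNA per cell cannot be told apart.

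Collagens are secreted matrix proteins, with a few held in the cell membrane. The fibrillar chains assemble into the cross-banded fibrils that carry tension in tendon, skin, bone and the vessel wall, and fibril-associated collagens (FACITs) sit on the surface of these fibrils. Type IV chains form the sheet-like network of basement membranes, which also surrounds each smooth muscle cell, and type VI chains form beaded filaments between cells and fibrils. Short-chain collagens build open lattices, and the multiplexins Col15a1 and Col18a1 lie where basement membrane meets the matrix. Chains are hydroxylated, folded and exported, trimmed of their propeptides and crosslinked by enzymes described after the chains. The 44 genes comprised 11 fibrillar, 9 FACIT, 6 type IV, 6 type VI, 3 short-chain, 2 multiplexin and 4 transmembrane chains, with 3 others.

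Promoter windows of 4 chains are shown because their levels gave 3 of the main patterns below. Col1a2 and Col3a1 were high in both day 13 sorts and in the aorta, Col11a1 was high at day 13 and low in the aorta, and Col15a1 was highest in the aorta. Each line gives the 250 bases before the RefSeq transcript start in the mouse build GRCm38.p6, 5′ to 3′, all on the plus strand. They are chr6:4505368-4505617 for Col1a2, chr1:45311288-45311537 for Col3a1, chr3:114030290-114030539 for Col11a1 and chr4:47207762-47208011 for Col15a1. Capitals mark matches, on either strand, to 4 motifs. These were the TATA motif TATAAA, the CAAT motif CCAAT with its reverse complement, the GC motif GGGCGG, and the CArG box bound by serum response factor.
Col1a2: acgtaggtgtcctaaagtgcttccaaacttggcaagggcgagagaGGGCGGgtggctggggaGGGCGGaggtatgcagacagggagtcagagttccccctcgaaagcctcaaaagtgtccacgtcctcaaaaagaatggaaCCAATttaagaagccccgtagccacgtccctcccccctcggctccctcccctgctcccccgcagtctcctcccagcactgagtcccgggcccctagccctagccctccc
Col3a1: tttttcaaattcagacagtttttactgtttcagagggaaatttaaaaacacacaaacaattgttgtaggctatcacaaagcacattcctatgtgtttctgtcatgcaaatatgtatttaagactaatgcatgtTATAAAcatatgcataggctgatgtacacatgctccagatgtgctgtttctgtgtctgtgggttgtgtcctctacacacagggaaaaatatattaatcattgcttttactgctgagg
Col11a1: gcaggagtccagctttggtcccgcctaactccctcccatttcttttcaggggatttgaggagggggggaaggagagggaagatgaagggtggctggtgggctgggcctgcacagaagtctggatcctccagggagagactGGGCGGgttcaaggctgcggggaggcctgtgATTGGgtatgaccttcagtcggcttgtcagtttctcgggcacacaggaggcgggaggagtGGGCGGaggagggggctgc
Col15a1: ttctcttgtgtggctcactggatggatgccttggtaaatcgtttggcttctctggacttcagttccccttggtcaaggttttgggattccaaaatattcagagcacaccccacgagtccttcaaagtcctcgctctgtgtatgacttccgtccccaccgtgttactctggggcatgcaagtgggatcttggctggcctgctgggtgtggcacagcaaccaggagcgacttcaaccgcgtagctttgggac

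The Col1a2 window held 1 CCAAT and 2 GGGCGG matches, and the Col11a1 window held the same numbers of both. The Col3a1 window held 1 TATAAA match, 117 bases before the start, and the Col15a1 window held no match to any of the 4 motifs. Windows were at hand for 35 of the 44 genes (38 windows, since some genes have more than 1). GGGCGG occurred in 57.9% of them and in 32.7% of all 32851 windows of that length. The shares were 34.2% and 33.8% for CCAAT, 13.2% and 12.4% for TATAAA, and 2.63% and 1.47% for the CArG box, which was found in 1 chain window, that of Col6a4. No overlap between different motifs was removed. A match is a description of letters and not of a bound site. Several chain genes are neighbours on the chromosome, among them Col4a1 with Col4a2, Col4a3 with Col4a4, Col4a5 with Col4a6, Col3a1 with Col5a2 and Col6a1 with Col6a2. The full promoter stretches of Col4a1 and Col4a2 from which the windows were cut, on opposite strands, share 78 bases.

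Across the series the levels are log2 values made by RMA, so a difference of 1 is a 2-fold change. Sample medians lay between 4.08 and 4.29, and replicates of a group reached r of 0.977 to 0.995 across probe sets. Calls of presence are not used here, so levels near 3 are not shown to lie above background, and folds against them depend on that floor. Acta2, the gene that drives the sorting reporter, had a mean level of 10.67 ± 0.447 in GFP- and 11.32 ± 0.129 in GFP+ cells (SD, n = 3 each; limma adjusted p = 0.151, and 0.0843 with the replicate block described below). The sorts did not overlap in Acta2, but the difference of 0.65 did not pass the test in either fit. Without a Kdr- group, Kdr cannot check the day 5 sort. Both day 13 samples numbered 3 stood apart from numbers 5 and 6 in many chains, so counts are also given without them. Precision is limited by the number of arrays, 3 in each group.

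Collagen chains were mostly low at day 0 and day 5 and higher at day 13 and in the aorta. The highest group mean was aortic for 24 of the 44 chains, day 13 GFP+ for 19, and day 13 GFP- for 1 (Col23a1). The lowest was day 5 for 21 chains and day 0 for 16. These are ranks of means and not tests, and their shares over all probe sets were not counted. Many of the highest means, such as that of Col10a1 in the aorta, did not pass against the next group. Over the 5 comparisons made, 33 chains passed limma's test in at least 1 (adjusted p under 0.05 over all probe sets). In single comparisons 4.53% to 37.2% of all probe sets passed. Their share passing in at least 1 was not counted, so the 33 are not read as a trait of collagens. The other 11 chains passed in none: Col6a4, Col6a5, Col7a1, Col10a1, Col11a2, Col13a1, Col17a1, Col22a1, Col24a1, Col26a1 and Col28a1. Their group means stayed between 2.58 and 5.09, and the means of 1 gene differed by 0.14 to 0.73 across the 5 groups.

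**Figure D1:**
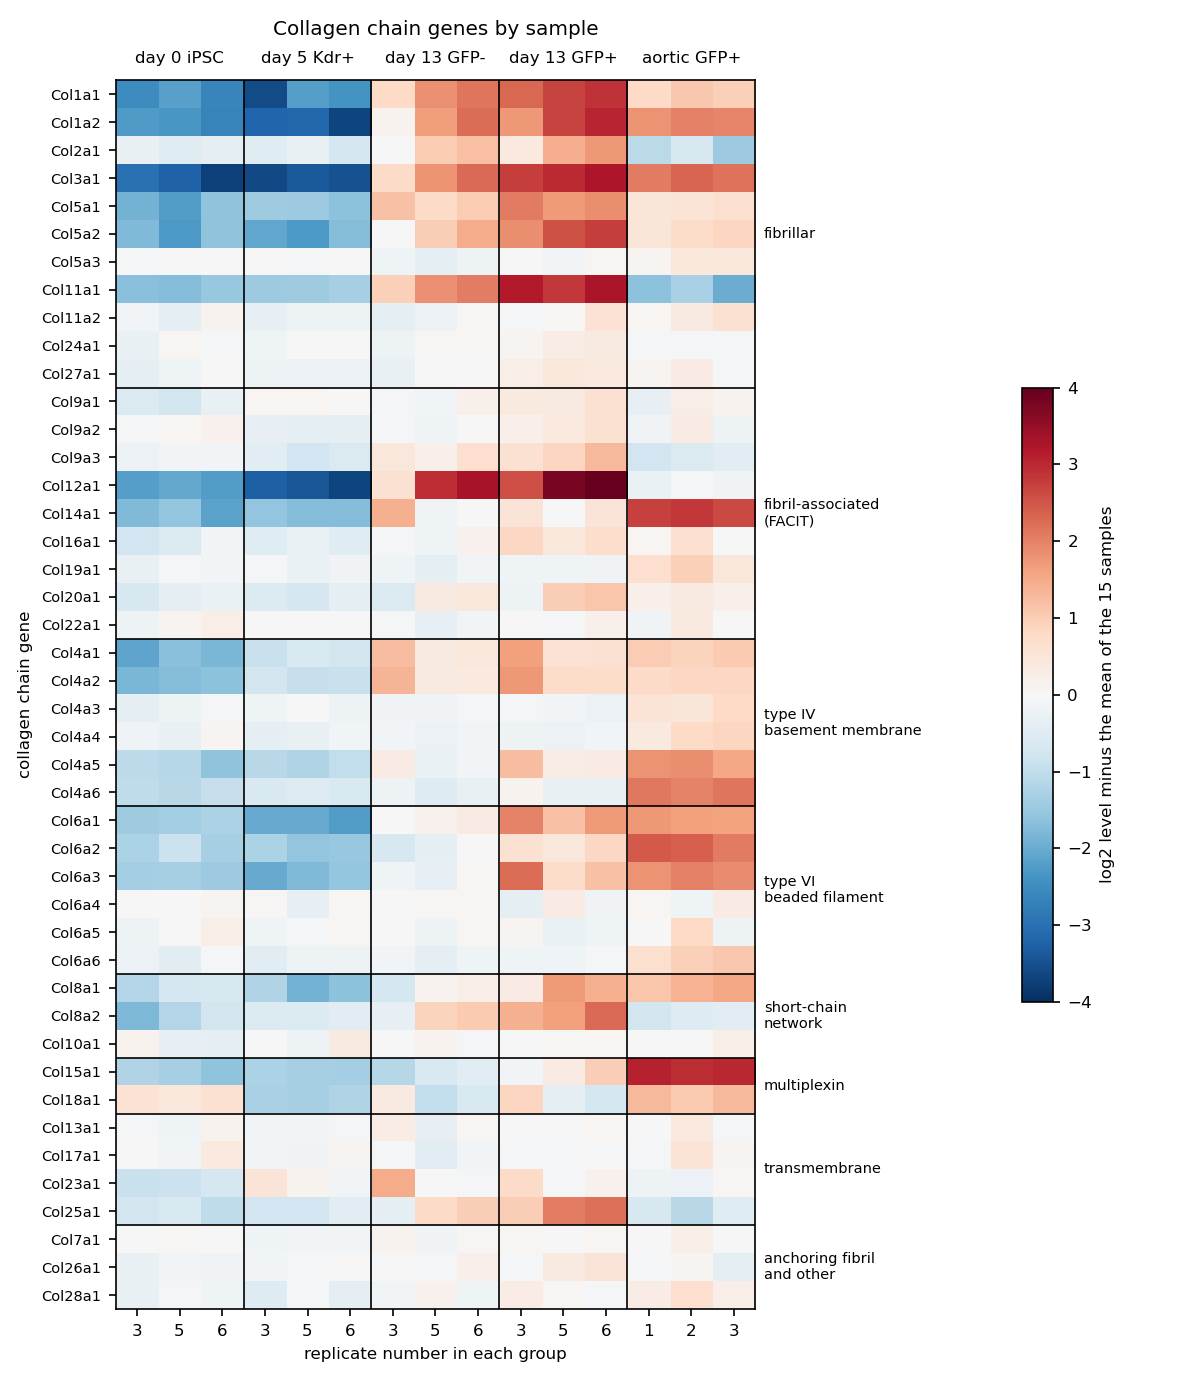
Level of each of the 44 collagen chain genes (rows, ordered by class) in each of the 15 samples (columns, with replicate numbers), as log2 level minus that gene's mean over the 15 samples. Most fibrillar chains turn from blue at day 0 and day 5 to red at day 13, whereas Col4a5, Col4a6, Col14a1 and Col15a1 are reddest in the aortic samples.

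From day 0 to day 5, of 44 chains 5 were higher and 3 lower (18.2%), against 28.8% of all probe sets (14.9% higher, 13.9% lower). The groups of these 8 chains did not overlap. Called or not, the groups did not overlap for 17 of 44 chains (38.6%), against 46% of all probe sets. The median log2 change was -0.06 for the chains and -0.01 for all probe sets. The number lower was 8 when only these 2 groups were fitted, 8 with array weights and 5 with a filter on low means. Over all probe sets the number lower went from 3505 to 4242, 4634 and 2551 in these fits. The number higher ranged from 2 to 5 when a sample was left out, with 2 without day 5 replicate 3 or day 0 replicate 5 and 3 without day 5 replicate 5 or day 0 replicate 3.

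In GFP- cells at day 13, 19 chains were higher than at day 5 and 0 lower. Of all probe sets 26% passed in this comparison, 12% of them higher and 13.9% lower as shares of those tested. In GFP+ cells 26 chains were higher than at day 5 and 0 lower, where 31.2% of all probe sets passed, 14.3% higher and 16.9% lower. At an unadjusted p under 0.05, limma likewise placed 0 chains lower in either comparison, and 21 and 30 higher. The median log2 change was 0.49 in GFP- and 1.10 in GFP+ cells, against -0.03 and -0.00 over all probe sets. Both comparisons use the same day 5 samples. The groups of each called chain did not overlap. Called or not, 26 of 44 chains in GFP- (59.1%) and 33 in GFP+ cells (75%) did not overlap with day 5. Over all probe sets these shares were 39.6% and 45.3%. Without the samples numbered 3 the counts were 22 and 28. Beside the rise in GFP- cells, all 8 endoderm and yolk sac markers, 6 of 7 endothelial, 5 of 7 smooth muscle, 3 of 7 tendon and 3 of 8 cartilage markers were higher than at day 5. Beside the rise in GFP+ cells, all 7 smooth muscle markers were higher, with mean list levels of 7.25 to 7.63 against 5.11 to 5.24, and 6 of 7 tendon markers and 6 of 8 cartilage markers were higher, with mean list levels of 5.46 to 7.89 against 3.60 to 4.03 for tendon and 5.18 to 5.45 against 3.91 to 4.13 for cartilage. The part of such cells in the chain levels was not tested.

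Between the day 13 sorts, 11 of 44 chains (25%) were higher in GFP+ cells and 0 lower, against 4.53% of all probe sets past the threshold, 2.02% higher and 2.52% lower. At an unadjusted p under 0.05, limma gave 21 higher and 0 lower. The groups did not overlap for 10 of the 11, the exception being Col25a1. Called or not, they did not overlap for 18 of 44 chains (40.9%), against 19.5% of all probe sets. The median log2 difference was 0.41 for the chains and 0.01 for all probe sets. Samples of equal replicate number deviated together in the sorts, and with a replicate block within day 13 (a fit chosen after that check) 17 chains were higher and 0 lower, against 3.39% of all probe sets higher. The 17 held all 11 found without the block. The 6 added were Col1a1 (log2 difference 1.04, adjusted p = 0.0408), Col1a2 (1.15, 0.00113), Col12a1 (1.21, 0.00148), Col27a1 (0.46, 0.0418), Col20a1 (0.56, 0.0167) and Col4a5 (0.63, 0.0246). When only these 2 sorts were fitted, without a block, 2 chains stayed past the threshold, Col5a1 and Col6a1. Without GFP+ replicate 6 there were 6, and without replicate 3 of both sorts 13. Over all probe sets the number higher went from 508 to 193, 307 and 438 in these 3 fits. Beside these differences, all 8 endoderm and yolk sac markers were lower in GFP+ cells, with mean list levels of 4.21 to 4.42 against 6.06 to 6.45 in GFP-, and 3 of 7 endothelial markers were lower. Of 7 smooth muscle markers only Tagln was higher in GFP+ cells, and Myocd was lower. Myocd read 6.95, 7.09 and 6.87 in GFP- and 5.25, 5.81 and 5.54 in GFP+ cells. Of 8 cartilage markers 3 were higher in GFP+ cells, and of 7 tendon markers 1 was higher, with 0 lower in either list. The part of such cells in the chain levels of either sort was not tested.

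Between aortic and day 13 GFP+ cells 11 chains were higher and 11 lower in the aorta (50%), against 37.2% of all probe sets past the threshold, 17.7% higher and 19.5% lower. With the filter on low means, under which 33 chains are tested, the counts were 7 higher and 12 lower, and with median centring 10 and 14. Over all probe sets 4449 higher and 4923 lower became 2545 and 4647 with the filter and 3849 and 5231 with median centring. The median log2 difference was 0.03 for the chains and 0.07 for all probe sets. The groups did not overlap for 21 of the 22, the exception being Col9a2. Called or not, they did not overlap for 23 of 44 chains (52.3%), against 44.9% of all probe sets. Without the day 13 samples numbered 3 the counts were 13 higher and 15 lower. By class, 6 of 11 fibrillar chains were lower and 1 higher, whereas 4 of 6 type IV and both multiplexin chains were higher and none of these 8 lower. In limma at an unadjusted p under 0.05 the type IV and multiplexin counts were also 4, 2 and 0. The aortic cells read high for smooth muscle markers (6 of 7 higher, mean list level 10.38 to 10.54 against 7.25 to 7.63). They also read higher for 6 of 8 adventitial fibroblast markers (7.39 to 8.53 against 5.03 to 5.35), 6 of 7 endothelial markers (5.52 to 6.10 against 4.13 to 4.28) and 4 of 5 leukocyte markers (4.62 to 5.15 against 3.76 to 4.02). Of 8 cartilage markers 1 was higher and 3 were lower in the aorta (4.59 to 4.85 against 5.18 to 5.45). Of 7 tendon markers 1 was higher and 2 were lower (5.73 to 6.06 against 5.46 to 7.89). The adventitial marker Dpt read 9.16, 10.11 and 9.62 in the aorta and 3.70, 2.99 and 3.32 in GFP+ cells, so the aortic samples stood far above the cultured ones. The part of these other cells in the chain levels of either group was not tested.

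**Figure D2:**
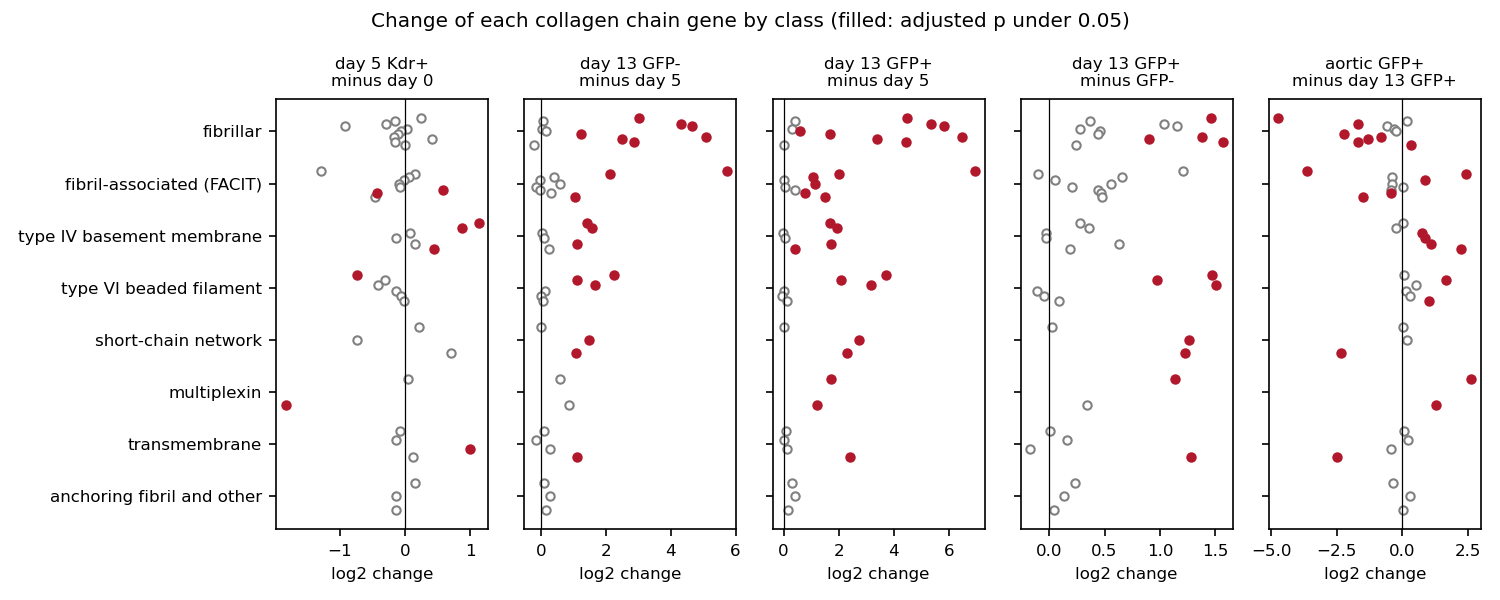
Log2 change of each collagen chain gene (points) by class (rows) in the 5 comparisons (panels, each with its own horizontal scale). Filled points passed limma's test at adjusted p under 0.05 and open points did not. No filled point lies below 0 in the panels of day 13 against day 5 or of GFP+ against GFP-, and in the aortic panel filled fibrillar points lie mostly below 0 and filled type IV points above it.

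Among the fibrillar chains, 0 of 11 passed from day 0 to day 5 (limma at an unadjusted p under 0.05: 1 higher, 1 lower). At day 13, 7 were higher in GFP- and 8 in GFP+ cells than at day 5, and 4 were higher in GFP+ than in GFP- cells (7 with the replicate block). The 7 chains Col1a1, Col1a2, Col2a1, Col3a1, Col5a1, Col5a2 and Col11a1 rose in both sorts. Col27a1, a chain of thin fibrils in cartilage, was the eighth in GFP+ cells, from 5.42 to 6.03 (limma adjusted p = 0.00236). Col5a3, Col11a2 and Col24a1 did not pass in either sort.

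Col1a1 and Col1a2 encode the chains of type I collagen, the main fibril of bone, tendon and skin. Col1a1 read 4.94, 6.32 and 6.15 at day 5, 9.31, 10.37 and 10.67 in GFP-, 10.83, 11.23 and 11.41 in GFP+ and 9.33, 9.61 and 9.48 in aortic cells. All 3 later groups lay above every day 5 sample, and the GFP+ samples lay above all others. The rise from day 5 to GFP+ was 41-fold (log2 5.36, SE 0.344, limma adjusted p = 9.41e-09), and the aorta was 3.21-fold lower than GFP+ (adjusted p = 0.00103). Col1a2 read 4.58, 4.60 and 4.09 at day 5, 7.89, 9.42 and 9.98 in GFP-, 9.48, 10.44 and 10.81 in GFP+ and 9.55, 9.76 and 9.69 in aortic cells. The last 2 groups overlapped, because GFP+ replicate 3 lay below the aortic samples. The aortic difference for Col1a2 was -0.57 (adjusted p = 0.297), and -0.95 without the samples numbered 3 (adjusted p = 0.00213).

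Col3a1 encodes type III collagen, the fibril of distensible tissues such as arteries. It read 3.45, 3.69 and 3.57 at day 5, 7.81, 8.85 and 9.33 in GFP-, 9.82, 10.04 and 10.27 in GFP+ and 9.14, 9.37 and 9.22 in aortic cells. GFP+ samples were highest without overlap, and the aortic samples overlapped the GFP- samples. GFP+ exceeded GFP- by 1.38 (2.6-fold, SE 0.284, limma adjusted p = 0.00994). The aorta was lower than GFP+ by a log2 difference of -0.80 (adjusted p = 0.0366), which became -0.51 after cyclic loess scaling (adjusted p = 0.228) and missed the threshold in 7 of the alternatives tried, with adjusted p up to that value.

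Col5a1 and Col5a2 encode type V collagen, which starts and limits the growth of type I fibrils. Col5a1 read 5.80, 5.77 and 5.58 at day 5, 8.39, 7.99 and 8.24 in GFP-, 9.30, 8.93 and 9.09 in GFP+ and 7.72, 7.78 and 7.88 in aortic cells. The order was GFP+, then GFP- and aorta, which did not pass against each other, then day 5, with no overlap between GFP+ and any other group. GFP+ was 1.87-fold above GFP- (limma adjusted p = 0.00388) and the aorta 2.48-fold below GFP+ (adjusted p = 7.99e-06). Col5a2 showed the same order and read 3.57, 3.36 and 3.91 at day 5, 5.64, 6.64 and 7.12 in GFP-, 7.52, 8.20 and 8.41 in GFP+ and 6.14, 6.38 and 6.52 in aortic cells. Its sort difference of 1.57 (SE 0.316, adjusted p = 0.00857) was the widest of the 11 chains called there, and its aortic difference was -1.70 (adjusted p = 0.000474). The third chain of the type, Col5a3, did not pass in the sort; it read 4.76, 4.62 and 4.80 in GFP+ and 4.84, 5.15 and 5.20 in aortic cells, a log2 difference of 0.34 (adjusted p = 0.0308) that was lost in 6 alternatives, with 0.27 (adjusted p = 0.109) without aortic replicate 3.

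Col11a1 and Col2a1 are best known from cartilage, where type XI collagen forms the core of type II fibrils. Col11a1 read 3.65, 3.68 and 3.76 at day 5, 6.06, 6.93 and 7.14 in GFP-, 8.26, 7.91 and 8.35 in GFP+, and 3.45, 3.80 and 3.10 in aortic cells. It was thus high at day 13 alone, and its aortic samples overlapped those of day 0 (3.43, 3.35 and 3.58). The aortic level was 26.4-fold below GFP+ (log2 -4.72, SE 0.234, limma adjusted p = 2.87e-10), the widest aortic difference of any chain. Col2a1 read 5.20, 5.39 and 5.02 at day 5, 5.72, 6.72 and 6.90 in GFP-, 6.08, 7.15 and 7.44 in GFP+ and 4.62, 5.07 and 4.25 in aortic cells. It was 4.73-fold lower in the aorta (adjusted p = 5.1e-05), and the sorts overlapped (difference 0.44, adjusted p = 0.658). Without GFP- replicate 6 its rise in GFP- cells was 1.02 (adjusted p = 0.0547). The partner chain Col11a2 passed in none of the 5 comparisons.

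**Figure D3:**
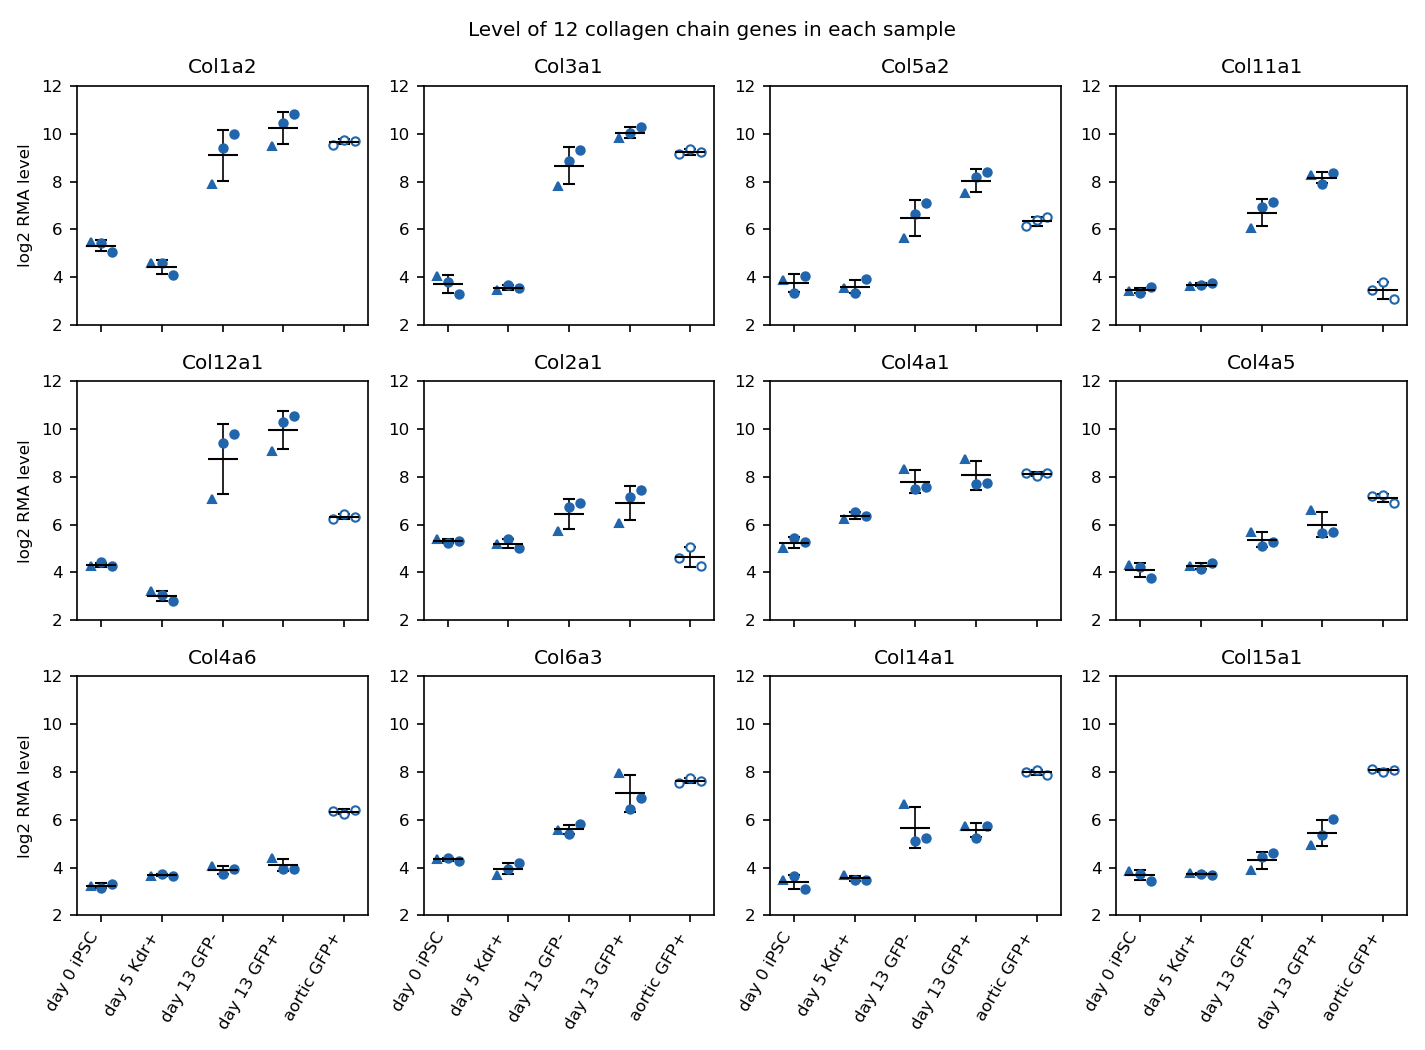
Log2 RMA level of 12 collagen chain genes in every sample (points) of the 5 groups. Bars mark the mean and the error bars 1 SD (n = 3), triangles mark replicate 3 of the cultured groups and open circles the aortic samples. Col11a1 stands near its day 0 level in the aorta while Col14a1, Col15a1 and Col4a6 stand highest there.

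Of the 9 FACIT chains, 3 were higher in GFP- and 6 in GFP+ cells than at day 5, and 0 passed between the sorts (limma at an unadjusted p under 0.05: 5 higher, 0 lower, and with the block Col12a1 and Col20a1 passed). Col12a1, which binds the surface of type I fibrils in tendon and muscle fascia, read 3.22, 3.06 and 2.80 at day 5, 7.08, 9.43 and 9.77 in GFP-, 9.06, 10.29 and 10.55 in GFP+ and 6.23, 6.43 and 6.33 in aortic cells. The aortic samples lay between the day 5 and day 13 samples without overlap. The aorta was 12.5-fold lower than GFP+ (log2 -3.64, SE 0.509, limma adjusted p = 3.16e-05). At day 5 Col12a1 lay below day 0 (4.27, 4.43 and 4.26) without overlap, but the difference of -1.29 did not pass (adjusted p = 0.073).

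Col14a1, a FACIT of mature fibrils in skin, tendon and vessel walls, took another order. It read 3.67, 3.49 and 3.50 at day 5, 6.66, 5.10 and 5.25 in GFP-, 5.74, 5.23 and 5.75 in GFP+ and 7.98, 8.06 and 7.89 in aortic cells. The aorta was highest without overlap, 5.3-fold above GFP+ (limma adjusted p = 9.94e-06), and the sorts overlapped. Col19a1, a rare FACIT of muscle and basement membrane zones, was also higher in the aorta, at 4.06, 4.34 and 3.83 against 3.21, 3.22 and 3.25 in GFP+ cells (adjusted p = 9.27e-05). It did not pass in any comparison of cultured cells.

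The 3 type IX chains, which decorate cartilage fibrils, differed among themselves. Col9a3 was higher in both sorts than at day 5 (2.06-fold in GFP-, 2.88-fold in GFP+) and 2.85-fold lower in the aorta than in GFP+ (limma adjusted p = 3.74e-06). Col9a1 rose from a mean of 3.76 ± 0.226 at day 0 to 4.34 ± 0.0554 at day 5 (SD, n = 3 each; log2 0.59, adjusted p = 0.011), a difference of 0.49 (adjusted p = 0.0603) without day 0 replicate 5. Col9a2 went the other way over the same days, from 6.04, 6.19 and 6.28 to 5.79, 5.71 and 5.74 (log2 -0.43, adjusted p = 0.0387). The Col9a2 call was lost in 7 alternatives at day 5 and 7 in the aorta, where it was lower by a log2 difference of -0.42 (adjusted p = 0.0359). Col16a1 and Col20a1 were higher than at day 5 in GFP+ cells, 2.08-fold and 2.22-fold (adjusted p = 0.000441 and 0.00708).

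The 6 type IV genes stand in 3 neighbouring pairs. Col4a1 and Col4a2 encode the chains found in nearly all basement membranes, and were the only pair of which both members passed from day 0 to day 5. Col4a1 read 5.01, 5.45 and 5.28 at day 0, 6.24, 6.52 and 6.38 at day 5, 8.34, 7.47 and 7.56 in GFP-, 8.76, 7.70 and 7.73 in GFP+ and 8.14, 8.02 and 8.17 in aortic cells. Day 0, day 5 and the later groups formed 3 steps without overlap, and the last 3 groups did not pass against each other, although the aorta exceeded GFP+ by 0.39 without the samples numbered 3 (adjusted p = 0.0413). The first step was 2.19-fold (limma adjusted p = 0.00318) and that from day 5 to GFP+ 3.22-fold (adjusted p = 8.22e-05). Col4a2 read 4.67, 4.75 and 4.84 at day 0, 5.75, 5.55 and 5.59 at day 5, 7.83, 6.86 and 6.89 in GFP-, 8.22, 7.23 and 7.21 in GFP+ and 7.26, 7.32 and 7.31 in aortic cells. It followed the same steps, 1.84-fold to day 5 (adjusted p = 0.016, and 0.0582 without day 5 replicate 3 or 0.0504 without day 0 replicate 3) and 3.78-fold from there to GFP+ (adjusted p = 2.07e-05). In both genes replicate 3 was the highest sample of each day 13 sort.

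Col4a5 and Col4a6 encode chains that occur together in the basement membrane around smooth muscle. Col4a6 read 3.25, 3.14 and 3.33 at day 0, 3.66, 3.73 and 3.65 at day 5, 4.06, 3.73 and 3.96 in GFP-, 4.41, 3.96 and 3.96 in GFP+ and 6.38, 6.23 and 6.41 in aortic cells. The aortic samples stood apart from all cultured ones, 4.69-fold above GFP+ (log2 2.23, SE 0.136, limma adjusted p = 3.18e-09). The small step from day 0 to day 5 passed as well (log2 0.44, adjusted p = 0.023), though not without any of 4 samples (adjusted p up to 0.0899, without day 0 replicate 5), and so did that to GFP+ (0.43, adjusted p = 0.0231), which without the samples numbered 3 was 0.28 (adjusted p = 0.0936). Col4a5 read 4.27, 4.16 and 4.39 at day 5, 5.71, 5.12 and 5.27 in GFP-, 6.61, 5.67 and 5.71 in GFP+ and 7.18, 7.22 and 6.91 in aortic cells. It rose in both sorts and was higher again in the aorta by a log2 difference of 1.11 (adjusted p = 0.00121), with no overlap.

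Col4a3 and Col4a4, which join Col4a5 in the basement membrane of the kidney filter, passed in 1 comparison. Col4a3 read 3.30, 3.26 and 3.13 in GFP+ and 3.91, 3.86 and 4.17 in aortic cells (log2 0.76, limma adjusted p = 0.000131). Col4a4 read 3.47, 3.46 and 3.58 in GFP+ and 4.09, 4.49 and 4.54 in aortic cells (log2 0.87, adjusted p = 0.000114). The aortic samples were higher without overlap, though at low levels. Between the sorts, 0 of 6 type IV chains passed (limma at an unadjusted p under 0.05: 1 higher, 0 lower; with the block, Col4a5).

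Of the type VI chains, Col6a1, Col6a2 and Col6a3, which build the common beaded filament, moved as a group of 3 at day 13. Each was higher in both sorts than at day 5 and higher in GFP+ than in GFP- cells. Col6a1 read 5.32, 5.39 and 5.47 at day 0, 4.73, 4.73 and 4.50 at day 5, 6.72, 6.90 and 7.07 in GFP-, 8.74, 7.91 and 8.44 in GFP+ and 8.49, 8.38 and 8.36 in aortic cells. It fell before it rose (day 5 against day 0 log2 -0.74, limma adjusted p = 0.00331), and GFP+ and aortic samples overlapped. GFP+ was 2.77-fold above GFP- (SE 0.171, adjusted p = 0.000115). Its sort call also passed when only the 2 sorts were fitted.

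Col6a2 read 5.62, 5.91 and 6.25 in GFP-, 6.88, 6.73 and 7.08 in GFP+ and 8.72, 8.65 and 8.35 in aortic cells. It was 1.96-fold higher in GFP+ than GFP- cells (limma adjusted p = 0.00455) and 3.19-fold higher again in the aorta (adjusted p = 1.62e-06), so these 3 groups formed steps without overlap. Col6a3 read 5.56, 5.41 and 5.81 in GFP-, 7.96, 6.45 and 6.90 in GFP+ and 7.53, 7.74 and 7.62 in aortic cells. It was 2.85-fold higher in GFP+ than GFP- cells (adjusted p = 0.00363), and GFP+ replicate 3 stood above even the aortic samples. The aortic difference of 0.53 did not pass (adjusted p = 0.14), but without the samples numbered 3 it was 0.95 (adjusted p = 0.00059).

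The other type VI chains can take the place of the Col6a3 chain. Col6a6 was 2.02-fold higher in the aorta than in GFP+ cells, at 5.15, 5.45 and 5.59 against 4.33, 4.35 and 4.45 (limma adjusted p = 2.66e-05). Col6a4 and Col6a5, its neighbours on the chromosome, passed in no comparison.

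Col8a1 and Col8a2 encode the short-chain lattice collagen of vessel walls and the cornea. Both were higher in both sorts than at day 5 and higher in GFP+ than in GFP- cells, but they parted in the aorta. Col8a1 read 4.07, 4.52 and 4.59 at day 0, and its GFP- level did not pass against day 0. Col8a1 read 4.04, 3.34 and 3.60 at day 5, 4.53, 5.37 and 5.48 in GFP-, 5.55, 6.94 and 6.66 in GFP+ and 6.33, 6.61 and 6.79 in aortic cells, the last 2 groups overlapping. Col8a2 read 4.78, 4.76 and 4.86 at day 5, 5.00, 6.20 and 6.38 in GFP-, 6.73, 6.96 and 7.58 in GFP+ and 4.59, 4.82 and 4.90 in aortic cells. Its rise in GFP- cells (1.06, adjusted p = 0.0211) was lost in 6 alternatives, with 0.80 without GFP- replicate 6 (adjusted p = 0.115). Its aortic level overlapped that of day 5 and was 5.01-fold below GFP+ (limma adjusted p = 2.64e-05). The sort differences of 1.26 and 1.23 passed narrowly (adjusted p = 0.036 and 0.0386) and were lost in several alternatives: without GFP- replicate 3 they were 0.96 and 0.80 (adjusted p = 0.136 and 0.122). With the block the adjusted p-values were 0.00125 and 0.00361. Col10a1, the third of the class and a marker of hypertrophic cartilage, stayed between 2.58 and 3.32 in the 15 samples.

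Col15a1 encodes a multiplexin that anchors basement membranes of vessels and muscle. It read 3.78, 3.72 and 3.69 at day 5, 3.91, 4.44 and 4.59 in GFP-, 4.94, 5.38 and 6.03 in GFP+ and 8.13, 8.01 and 8.07 in aortic cells. The order GFP-, GFP+, aorta was free of overlap. GFP+ was 2.2-fold above GFP- (limma adjusted p = 0.00783) and the aorta 6.13-fold above GFP+ (log2 2.62, SE 0.226, adjusted p = 1.64e-07), the widest aortic rise of any chain.

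Col18a1, whose chain releases the fragment endostatin, was the chain that fell most from day 0 to day 5. It read 7.01, 6.89 and 7.03 at day 0 and 5.12, 5.11 and 5.22 at day 5, a 3.54-fold fall (log2 -1.82, SE 0.335, limma adjusted p = 0.000539). At day 13 it read 6.79, 5.45 and 5.81 in GFP- and 7.28, 6.05 and 5.73 in GFP+ cells, and 7.73, 7.48 and 7.73 in the aorta. Replicate 3 was the highest sample of both sorts. The rise from day 5 to GFP+ was 1.20 (adjusted p = 0.0109), and 0.74 without the samples numbered 3 (adjusted p = 0.0011). With GFP+ replicate 3 alone left out, the same 0.74 had an adjusted p of 0.0545. The aorta was 2.45-fold above GFP+ (adjusted p = 0.00633).

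Among the transmembrane chains, Col25a1, known from neurons and their muscle contacts, read 3.84, 3.82 and 4.14 at day 5, 4.20, 5.37 and 5.59 in GFP-, 5.58, 6.63 and 6.80 in GFP+ and 3.95, 3.49 and 4.10 in aortic cells. It was 5.6-fold lower in the aorta than in GFP+ cells (limma adjusted p = 2.13e-05), where it overlapped day 5. Its sort difference of 1.28 (adjusted p = 0.0409) came with overlapping groups and was 0.85 without GFP- replicate 3 (adjusted p = 0.139). Its rise in GFP- cells (1.12, adjusted p = 0.0197) was also 0.85 without GFP- replicate 6 (adjusted p = 0.109). Col23a1 rose from 5.02, 5.06 and 5.23 at day 0 to 6.43, 6.04 and 5.81 at day 5 (log2 0.99, adjusted p = 0.0311), a call lost when any of 5 samples was left out. Col13a1 and Col17a1, and the anchoring fibril chain Col7a1, passed in no comparison.

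The day 13 samples numbered 3 differed from numbers 5 and 6 in the same direction in both sorts for many chains, a pattern looked at after its values were seen and described without a test. In both sorts, 15 of 44 chains (34.1%) were lower in replicate 3 than in both other samples, against 19.2% of all probe sets, and 7 (15.9%) were higher, against 25.3%. The 15 included 8 of the 11 fibrillar chains, and the 7 were Col4a1, Col4a2, Col4a5, Col4a6, Col18a1, Col23a1 and Col5a1. Thus 4 of 6 type IV chains were higher in replicate 3 and none lower. Relative to the mean of numbers 5 and 6, Col12a1 was lower in replicate 3 by a log2 difference of -2.52 in GFP- and -1.36 in GFP+ cells, and Col1a2 by -1.82 and -1.14. Col18a1 was higher by 1.16 and 1.39. Differences of at least 1 in both sorts were found for Col12a1, Col1a2, Col2a1 and Col25a1 on the lower side (0.837% of all probe sets) and for Col18a1 on the higher side (0.317%). All 7 tendon markers, a list chosen with earlier results of these data known, were lower in replicate 3 of both sorts. The mean of that list was 4.60, 6.59 and 6.91 in GFP- replicates 3, 5 and 6, and 5.46, 7.68 and 7.89 in GFP+. Replicate 3 was also below both others for 4 of 7 smooth muscle, 3 of 7 endothelial, 3 of 8 adventitial fibroblast and 2 of 8 cartilage markers. It was above both for 4 adventitial fibroblast markers, 1 endothelial marker and 0 of the smooth muscle and cartilage lists. Tnmd, a marker of tendon cells, read 2.65, 7.34 and 7.90 in GFP- and 3.16, 8.55 and 8.83 in GFP+ cells. The part of such cells in the fibrillar levels was not tested.

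**Figure D4:**
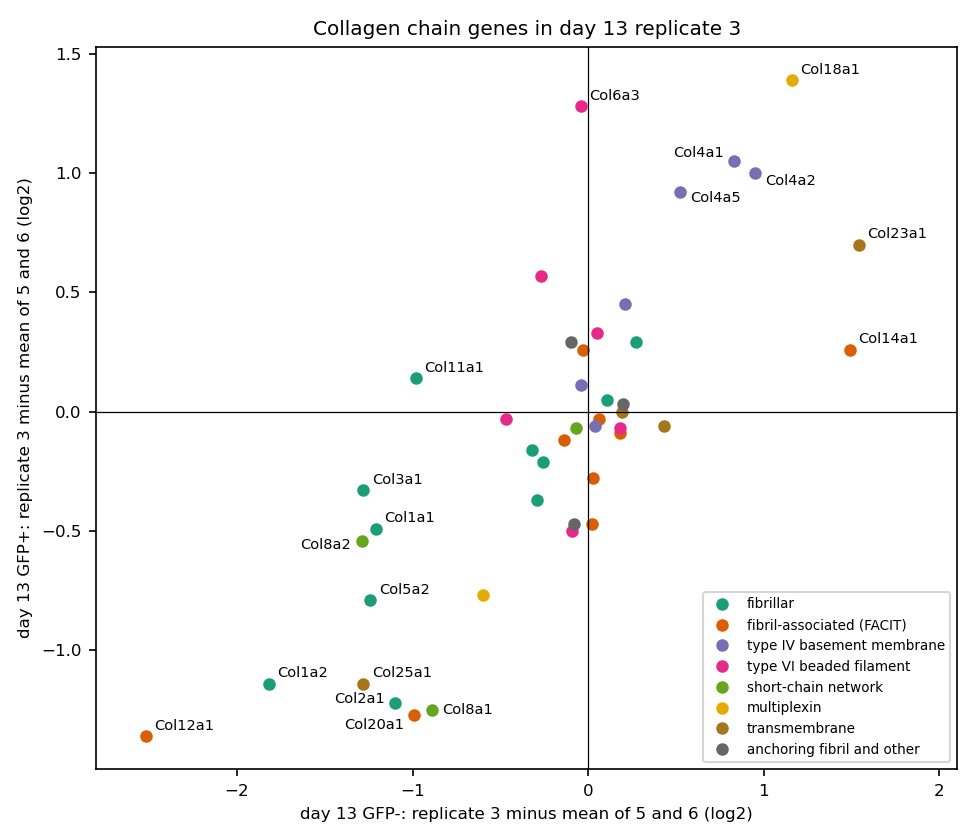
Log2 level of each collagen chain gene (points, coloured by class) in day 13 replicate 3 minus the mean of replicates 5 and 6, for GFP- cells (horizontal) and GFP+ cells (vertical). Chains that differ by at least 0.8 in either sort are named. Col12a1, Col1a2 and Col2a1 lie at the lower left and Col18a1, Col4a1 and Col4a2 at the upper right, while Col6a3 was higher in replicate 3 of GFP+ cells alone.

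Genes that make, trim, crosslink and sense collagen were counted in 5 lists of 48 genes in all. From day 0 to day 5, 10 were higher and 13 lower. At day 13, 36 were higher and 2 lower in GFP- and 37 higher and 2 lower in GFP+ cells than at day 5, with median log2 changes of 1.31 and 1.68. Between the sorts 12 were higher and 2 lower in GFP+ (19 and 2 with the replicate block), and in the aorta 6 were higher and 24 lower than in GFP+ cells. Of all probe sets, 14.9% were higher and 13.9% lower at day 5 than at day 0. Against day 5, 12% were higher and 13.9% lower in GFP- cells, and 14.3% and 16.9% in GFP+ cells. Between the sorts 2.02% were higher and 2.52% lower in GFP+ (3.39% higher with the block). In the aorta 17.7% were higher and 19.5% lower than in GFP+ cells.

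Of 13 genes that hydroxylate or glycosylate the chains, 12 were higher in each day 13 sort than at day 5. That is 92.3%, against 12% of all probe sets in GFP- and 14.3% in GFP+ cells. In the aorta 10 were lower and 1 higher than in GFP+ cells (76.9% and 7.69%, against 19.5% and 17.7%). P4ha1, P4ha2 and P4ha3 encode the catalytic subunits of prolyl 4-hydroxylase, which stabilises the triple helix. P4ha3 read 3.23, 3.12 and 3.47 at day 5, 5.26, 7.38 and 7.50 in GFP-, 6.49, 8.32 and 8.37 in GFP+ and 3.39, 4.16 and 4.03 in aortic cells. The aortic samples lay below every day 13 sample, 14.6-fold below GFP+ (limma adjusted p = 2.22e-05), and replicate 3 was the lowest of each sort. P4ha1 was 3.37-fold, the lysyl hydroxylase gene Plod2 3.28-fold and the prolyl 3-hydroxylase gene P3h1 3.22-fold lower in the aorta than in GFP+ cells. P3h2, which modifies type IV collagen, was the 1 that was higher in the aorta (log2 0.52, adjusted p = 0.0184), and it had the widest rise of this list from day 0 to day 5 (11.1-fold, adjusted p = 2.28e-10).

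Of 12 folding and export genes, 9 were higher and 1 lower in GFP- cells than at day 5 (75% and 8.33%, against 12% and 13.9% of all probe sets). In GFP+ cells 8 were higher and 1 lower than at day 5 (66.7% and 8.33%, against 14.3% and 16.9%). In the aorta 6 were lower and 0 higher than in GFP+ cells (50% lower, against 19.5%). At an unadjusted p under 0.05, limma gave 0 higher and 7 lower there. Serpinh1 encodes HSP47, the chaperone of procollagen. It read 5.25, 5.41 and 5.55 at day 0, 6.84, 6.88 and 6.75 at day 5, 8.84, 8.57 and 8.65 in GFP-, 8.86, 8.74 and 8.91 in GFP+ and 7.65, 7.61 and 7.54 in aortic cells. Unlike the fibrillar chains, it had already risen at day 5 (2.67-fold, limma adjusted p = 1.37e-07), and the aortic samples lay between day 5 and day 13 without overlap. Sec24d and Kdelr3, genes of vesicle transport, were 16.5-fold and 18.1-fold higher in GFP+ cells than at day 5. Both folds start from a fall, as Sec24d had means of 5.86 at day 0, 4.75 at day 5 and 8.80 in GFP+ cells. Kdelr3 had means of 6.57, 4.27 and 8.44 in the same groups.

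Of 8 genes of propeptide cleavage, 5 were higher in GFP- and 4 in GFP+ cells than at day 5, with 1 lower in each. Those higher were 62.5% and 50%, against 12% and 14.3% of all probe sets. In the aorta 1 was higher and 4 lower than in GFP+ cells (12.5% and 50%, against 17.7% and 19.5%). The 1 lower at day 13 and higher in the aorta was Pcolce2, an enhancer of procollagen C-proteinase. It read 6.15, 6.15 and 6.21 at day 5, 4.31, 4.24 and 4.45 in GFP-, 3.89, 4.49 and 4.17 in GFP+ and 7.73, 7.83 and 7.68 in aortic cells. The aorta was highest and day 13 lowest, with an 11.8-fold aortic difference (limma adjusted p = 6.9e-11). Its relative Pcolce went the other way, 18.7-fold above day 5 in GFP+ cells and 2.44-fold lower in the aorta (adjusted p = 5.74e-05). Adamts2 and Adamts3, which remove N-propeptides, parted between the sorts: Adamts2 was 3.1-fold higher (adjusted p = 0.000224) and Adamts3 1.81-fold lower (adjusted p = 0.0296) in GFP+ than in GFP- cells.

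All 5 crosslinking genes were higher in GFP+ cells than at day 5, and 4 were higher in GFP- cells (all probe sets: 14.3% and 12%). Day 5 was a low point, as 4 of the 5 were lower there than at day 0 (80%, against 13.9% of all probe sets). Against day 0, 4 of 5 were higher in GFP+ cells. The exception, Loxl4, had means of 4.63 at day 0, 4.27 at day 5 and 4.65 in GFP+ cells. In the aorta 1 was higher and 2 lower than in GFP+ cells (20% and 40%, against 17.7% and 19.5% of all probe sets). Loxl2, a lysyl oxidase that also acts on type IV collagen, was 5.59-fold lower there (limma adjusted p = 3.29e-06), while Loxl1 was 1.54-fold higher (adjusted p = 0.00133). Loxl1 and Loxl3 were higher in GFP+ than in GFP- cells, 2.63-fold and 2.44-fold (adjusted p = 1.59e-05 and 8.44e-05).

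Of 10 collagen receptors, 6 were higher in GFP- and 8 in GFP+ cells than at day 5 (60% and 80%, against 12% and 14.3% of all probe sets). In either sort 0 were lower, also in limma at an unadjusted p under 0.05. In the aorta 3 were higher and 2 lower than in GFP+ cells (30% and 20%, against 17.7% and 19.5% of all probe sets). Itga1, the integrin chain that binds type IV and other collagens, read 6.73, 7.44 and 7.35 in GFP+ and 9.02, 8.93 and 9.17 in aortic cells, a 3.65-fold difference without overlap (limma adjusted p = 8.75e-05). Itga10 and the fibrillar collagen receptor Ddr2 were also higher there, 2.29-fold and 2.32-fold. Itga11, a receptor for type I collagen, and Mrc2, which takes up collagen fragments, were 2.91-fold and 3-fold lower.

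**Figure D5:**
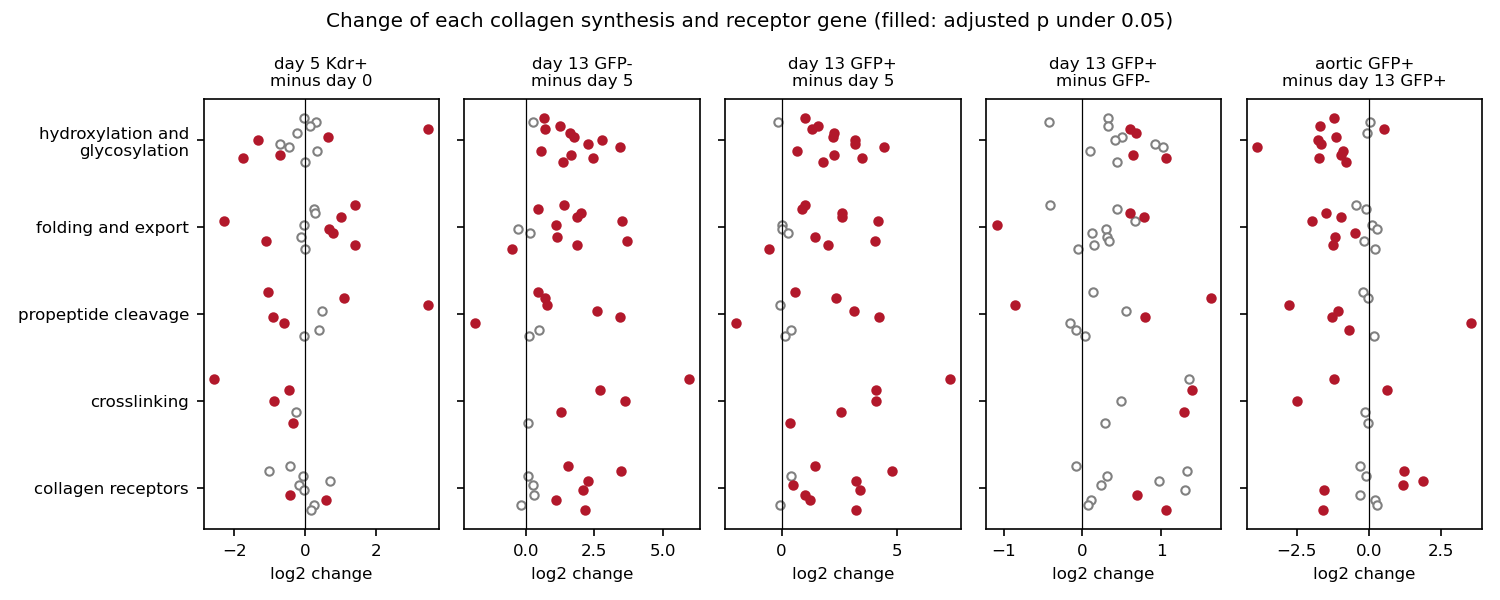
Log2 change of each of the 48 genes of collagen synthesis and collagen receptors (points) by list (rows) in the 5 comparisons (panels, each with its own horizontal scale). Filled points passed limma's test at adjusted p under 0.05 and open points did not. Filled points lie mostly above 0 for both sorts against day 5, and those of hydroxylation and glycosylation lie mostly below 0 in the aortic panel.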

How the data were processed

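Total RNA was labelled with biotin and hybridised to the arrays, per the labels' protocols. The deposited values are log2 expression, 1 per probe set and sample, made by the authors with RMA in affy 1.36.1 and R 2.15.1, per the submitters' processing notes. That they are log2 follows from their range. The build behind the probe sets is not stated in the sources. No further filter or scaling was applied, and 0 columns of values were left unused. Symbols came from the RefSeq table of GRCm38.p6 for 23740 of 25206 probe sets, and 1466 stayed unnamed. All 44 chains matched. Promoter sequences are RefSeq's.

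A single limma fit (limma 3.58.1, R 4.3.3) took all 15 samples and estimated 1 mean for each group. Variances were moderated by empirical Bayes (10 residual and 5.09 prior degrees of freedom). Adjusted p-values follow Benjamini and Hochberg over all probe sets of a comparison, with a threshold of 0.05. SE is that of the moderated log2 difference. The script was tested on simulated data. The order of group levels used all 10 pairs of groups.

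To check whether replicate numbers pair samples, deviations from group means were correlated over all probe sets. Equal numbers of the day 13 sorts correlated at 0.597, 0.403 and 0.397. Unequal ones correlated at 0.345 and 0.278 between numbers 5 and 6, and at -0.5 to -0.419 between number 3 and the others. The labels do not say that a number marks a shared culture. Equal numbers of the other cultured stages correlated at -0.091 to 0.079, so the replicate block is given for the day 13 sorts.

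Chains, classes and lists were chosen with earlier results of these data known. Every chain may be named. Values by sample are given for up to 8 chains with the widest change per comparison and for others as each class needs, and up to 4 genes are named per synthesis list. P3h2 and Serpinh1 at day 5, and Tnmd, Dpt and Acta2, were chosen after their values were seen or as markers. Of the marker lists, bone and parietal endoderm are used only here: in GFP+ cells against day 5, 2 of 7 in each were higher and 1 lower. In the aorta against GFP+ cells, 3 bone markers were higher and 1 lower, and 2 parietal endoderm markers were higher and 4 lower. Replicate 3 of both day 13 sorts was below both others for 3 bone and 2 parietal endoderm markers, and above both for 2 of each. The leukocyte list has 5 of its 6 genes measured. Alternatives were a fit of only the 2 groups compared, array weights, trend and robust moderation, median centring, repeated quantile normalization, cyclic loess, a filter on low means, replicate blocks and leaving out replicates.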

Additional observations from a re-analysis of the deposited data

How the results depend on the processing

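Of 3201 values of single chains under the alternatives, 3019 kept their side of the threshold, 81 fell short of it and 101 came to pass it. Among the 3019, 140 turned sign, all of them of chains not past the threshold in that comparison, and 0 called ones did. In the comparison of day 5 with day 0, the number of chains lower moved from 3 to 8 in the fit of only the 2 groups, 8 with array weights and 5 with the filter on low means (33 chains tested), and the number higher ranged from 2 to 5 when a replicate was left out. Over all probe sets the number lower moved from 3505 to 4242, 4634 and 2551 in these 3 fits. When a replicate was left out, the number higher over all probe sets went from 3744 to between 3150 and 3504. For GFP- against day 5, the number lower moved from 0 to 1 with array weights and 1 with median centring (over all probe sets, from 3506 to 5503 and 4392). For GFP+ against GFP-, the number higher moved from 11 to 2 in the fit of only the 2 groups and ranged from 6 to 13 when replicates were left out. Over all probe sets the number higher moved from 508 to 193 in that fit and ranged from 307 to 537 when replicates were left out. For the aorta against GFP+, the number higher moved from 11 to 7 with the filter, under which 33 chains are tested (over all probe sets, from 4449 to 2545). The cause of the other moves was not tested. With the replicate block over the 12 cultured samples the numbers higher were 6, 20, 30 and 15 in the first 4 comparisons, in the order given, and the lower ones 4, 0, 0 and 0. With the replicate block within day 13, chosen after seeing the data, GFP+ against GFP- gave 17 chains higher and 19 synthesis and receptor genes higher in place of 12. Without replicate 3, also added later, the synthesis and receptor genes lower in GFP+ than GFP- went from 2 to 1. No paired analysis was possible for the aorta because the labels link none of its primary samples to a day 13 culture. The 1 replicate number they share is not said to mark a shared unit. Median centring moved the median change of all probe sets from -0.03 to -0.13 for GFP- and from -0.00 to -0.11 for GFP+ against day 5, where the chain medians were then 0.39 and 1.00. Under cyclic loess, the direction that held more calls among all probe sets changed in each comparison. For GFP+ against day 5, 3598 higher and 4269 lower became 4160 and 3700. The higher and lower chain counts became 5 and 4, 20 and 0, 26 and 0, 11 and 0, and 11 and 11. The files give no depth or background, so low levels limit which chains can be read.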
